A study of Canis lupus familiaris with 8 samples.

Results

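The miRNAs of heart and skeletal muscle described here were miR-1 with its murine forms miR-1a and miR-1b, miR-133a, miR-133b, miR-206, miR-208a, miR-208b and miR-499. They were chosen by name, from the probe names of a custom miRNA array that carried canine and murine sequences of miRBase release 17, with no threshold on their values. The names matched 11 of 1224 listings on the array, 7 of the 289 canine listings (prefix cfa-) and 4 of the 935 murine listings (prefix mmu-). Star strands, the less abundant arm of a hairpin in the older naming, were left out of this choice and are given at the end of the detection results.

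Serum of 8 client-owned adult Doberman Pinschers was hybridized to 8 single-colour arrays on a single slide. The DCM group (arrays labelled DoCM5 to DoCM8, n = 4) came from dogs with dilated cardiomyopathy, a disease in which the ventricles widen and contract poorly. According to the methods these dogs were in the occult stage, without signs noticed by their owners and with raised cardiac troponin I. All received pimobendan, an ACE inhibitor and either sotalol or amiodarone, so that disease and medication cannot be told apart. The study adds that the owner of the dog it names DoCM8 gave the medication irregularly. The control group (Con1 to Con4, n = 4) came from healthy dogs of the same breed. The labels give an age of 7 to 11 years for all dogs, whereas the methods describe the dog behind DoCM8, the array left out of the group comparison there, as young. Each array stands for a different dog, and serum is a cell-free fluid, so that release by fewer cells and less RNA released per cell cannot be told apart. The slide held the DCM arrays in its first row and the controls in its second, and the effects of row and group cannot be told apart either.

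miRNAs are short RNAs that pair with messenger RNAs, chiefly through their seed near the 5′ end, and lower the output of their targets. miR-1 and miR-133a are made from shared transcripts in heart and skeletal muscle, while miR-206 and miR-133b are typical of skeletal muscle. miR-1 and miR-206 share a seed and belong to a single family, and the miR-133 members differ from each other only near their ends, so that probes for members of a family may share targets. miR-208a, miR-208b and miR-499 lie in introns of myosin heavy chain genes and are called myomiRs, and miR-208a is known as the most heart-restricted of them. These miRNAs can leave injured muscle cells, and their levels in blood are followed as signs of muscle or heart injury.

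The gene table of the dog assembly UU_Cfam_GSD_1.0 (RefSeq) held a gene for each canine listing and showed these arrangements. MIR1-2 and MIR133A were direct neighbours inside MIB1, MIR1-1 stood next to MIR133C, and MIR206 stood next to MIR133B, with 0 genes starting between the partners of each pair. MIR208A lay within MYH6 and MIR208B within MYH7, the genes of the alpha and beta myosin heavy chains of the heart, and MIR499 lay within MYH7B. Coordinates are not printed because the scanner files name another build.

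Each listing was represented by 40 features, 20 copies of each of 2 probes. The background-subtracted signal of a feature is given in the scanner's arbitrary units, and a feature was well above background where the scanner software flagged it so. Between 10817 and 14000 of the 48960 features of an array carried this flag, against 1 to 7 of 1000 negative control features, and 0 features were saturated. The lowest signal among flagged features was 6.21 to 8.11, depending on the array. A listing was called on an array where 50% or more of its 40 features were flagged, and it was counted as detected in the series when at least 1 feature was flagged on 2 or more arrays of a group, which is the filter of the methods.

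The arrays showed a clear signal for the listings cfa-miR-133b, cfa-miR-499 and mmu-miR-208a-5p, a weak and variable one for miR-1, and little or none for miR-133a, miR-208a, miR-208b and the murine miR-1b. In all, 6 of 11 listings had a kept feature (54.5%), beside 438 of 1224 names on the array (35.8%). miR-133b, miR-499 and miR-208a-5p were called well above background on all 8 arrays, so that 3 of 11 listings (27.3%) reached this, beside 255 of 1224 names (20.8%). Another 5 listings were called on 0 arrays, as were 827 names in all. No test was made of these shares.

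**Figure D1:**
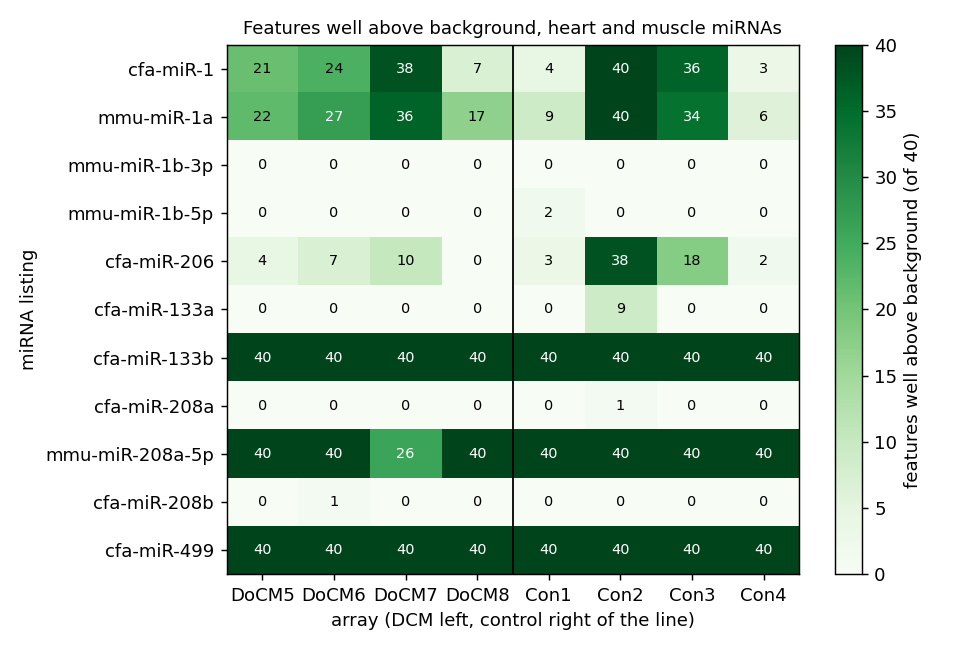
Number of features flagged well above background, of 40, for each of the 11 listings (rows) on each of the 8 arrays (columns, DCM left and control right of the line). cfa-miR-133b and cfa-miR-499 had 40 flagged features on every array, mmu-miR-208a-5p had 26 on DoCM7 and 40 elsewhere, and cfa-miR-1, mmu-miR-1a and cfa-miR-206 changed from array to array with their highest counts on Con2.

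Flagged features of cfa-miR-1, the main muscle miRNA that restrains growth of muscle precursors, numbered 21 on DoCM5, 24 on DoCM6, 38 on DoCM7 and 7 on DoCM8, against 4 on Con1, 40 on Con2, 36 on Con3 and 3 on Con4. It was therefore called on 3 of 4 DCM and 2 of 4 control arrays, and the groups overlapped over nearly the whole scale. The murine listing mmu-miR-1a gave 22, 27, 36 and 17 features on DoCM5 to DoCM8 and 9, 40, 34 and 6 on Con1 to Con4, and was called on the same numbers of arrays, 3 and 2. Both listings were low on Con1, Con4 and DoCM8. The 2 probes of cfa-miR-1 were not equally bright: on DoCM5 one had 5 and the other 16 of 20 features flagged, and on DoCM6 they had 7 and 17. The mean signals of cfa-miR-1 over all 40 features ran from 3.47 on Con4 to 17.2 on Con2, around the lowest signal of flagged features. A signal of this size leaves little room to see a lower level.

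The other murine listings of this miRNA gave no signal. mmu-miR-1b-3p had 0 flagged features on all 8 arrays, with mean signals from -0.494 to -0.0600. mmu-miR-1b-5p had 2 flagged features on Con1 and 0 elsewhere, with mean signals from -0.248 to 1.94. miR-1b is a murine name, and no canine listing of it was among the names matched.

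cfa-miR-206, which promotes the differentiation of skeletal muscle, had 4, 7, 10 and 0 flagged features on DoCM5 to DoCM8 and 3, 38, 18 and 2 on Con1 to Con4. Only Con2 passed 50%, and every DCM array stayed below it. Its mean signal was 12.2 on Con2 and between 3.38 and 7.10 on the other arrays. On DoCM7 the copies scattered widely, with a mean of 7.10 ± 11.9 (SD over 40 features).

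The miR-133 listings, whose miRNAs hold back muscle cell growth and were tied to enlargement of the heart, differed from each other on the same arrays. cfa-miR-133b had all 40 features flagged on each array. cfa-miR-133a had 9 flagged features on Con2 and 0 on the other 7 arrays, all 9 from 1 of its 2 probes, with mean signals from -0.0386 to 3.44. A further miR-133 listing, cfa-miR-133c, was outside the names chosen and was added after its values were seen: it had 33, 26, 35 and 23 flagged features on DoCM5 to DoCM8 and 21, 40, 40 and 30 on Con1 to Con4. Whether the probes of the miR-133 listings bind the same miRNA was not tested, and the probe sequences were not used here.

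Of the myomiRs, cfa-miR-499 was flagged on all 40 features of all 8 arrays. cfa-miR-208a had 1 flagged feature, on Con2, and cfa-miR-208b had 1, on DoCM6, both shares no larger than a single copy of 40. Mean signals stayed between -0.614 and -0.0434 for cfa-miR-208a and between 0.0637 and 2.39 for cfa-miR-208b. The 95th percentile of the negative control features of an array lay between 0.657 and 1.58, and cfa-miR-208b had more than 50% of its features above it on DoCM6 (21 of 40) and Con2 (32 of 40). miR-208a, encoded within the alpha myosin gene of the heart, was not detectable by its canine listing in DCM or in control serum.

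mmu-miR-208a-5p names the other arm of the miR-208a hairpin, and no canine listing of this arm was among the names matched. Its features were flagged on all 40 copies of 7 arrays and on 26 of 40 on DoCM7, where its second probe fell to 6 of 20. Signal was therefore present for the murine 5p listing on arrays where the canine miR-208a listing had none. Whether the probe binds the dog's miR-208a-5p or another RNA was not tested.

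The 7 star listings of the same hairpins on the array were called on 0 arrays and had 0 kept features. Their highest count was 2 flagged features of 40, for mmu-miR-133a* on a control array, and its mean signals ran from 0.0731 to 2.87.

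The count of detected listings was 6 of 11 with each array left out of the filter in turn and also when 3 arrays of a group were asked for. It was 4 of 11 when a feature had to be flagged on all 8 arrays, and then 319 of 1224 names passed. When a single array was enough it was 10 of 11, and then 987 of 1224 names passed. Also tried were 2 more lenient flags, a signal significantly above the local background or above the 95th percentile of the negative controls. With either, 6 in place of 3 listings were called on all 8 arrays. cfa-miR-208a, mmu-miR-1b-3p and mmu-miR-1b-5p were still called on none. The count of all names under these flags is not given, so the rise is not a result about the members.

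**Figure D2:**
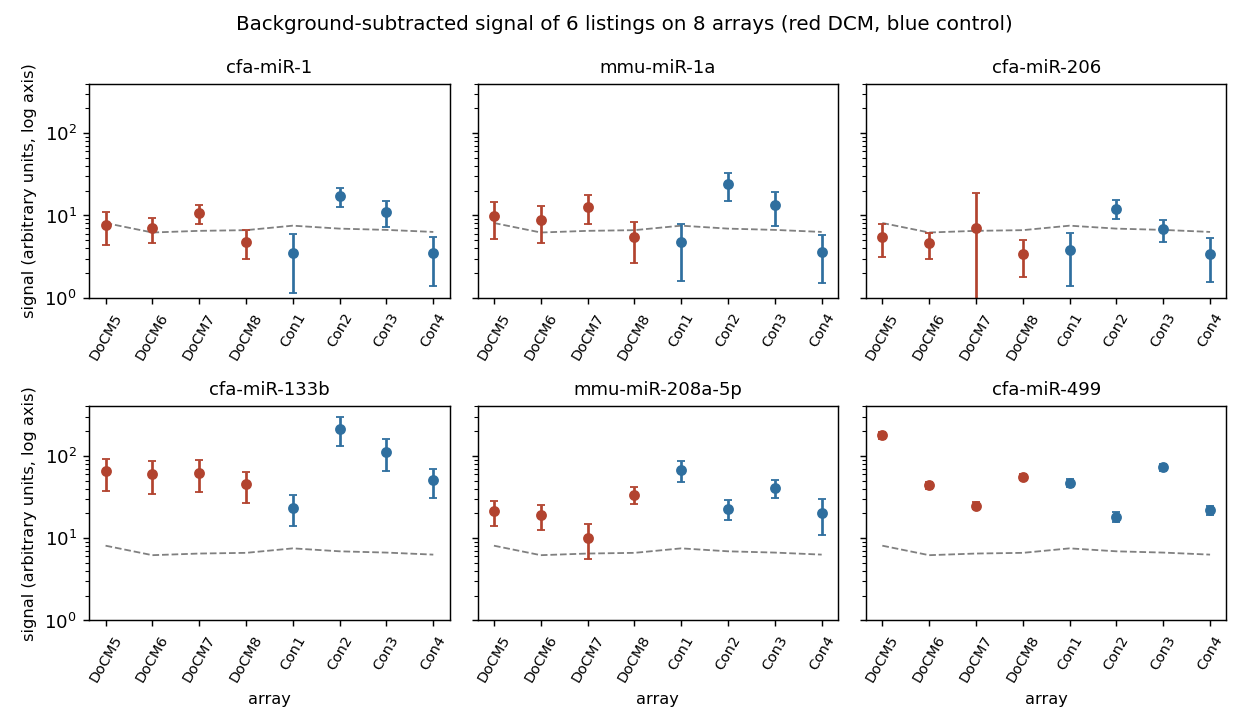
Mean background-subtracted signal over all 40 features (dots, arbitrary units, log axis) with the SD over the 40 features (bars) for the 6 detected listings on the 4 DCM (red) and 4 control (blue) arrays, and the lowest signal among the flagged features of each array (dashed line). miR-1, miR-1a and miR-206 lie around the dashed line and are highest on Con2, miR-133b and miR-499 lie above it on all arrays, and the bar of miR-206 on DoCM7 runs below the axis because its SD of 11.9 exceeds its mean of 7.10.

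Before any adjustment between arrays, the mean signals of cfa-miR-133b were 64.9 on DoCM5, 60.2 on DoCM6, 62.5 on DoCM7 and 45.4 on DoCM8, against 23.5 on Con1, 212 on Con2, 113 on Con3 and 50.4 on Con4. The DCM values lay close together inside a control group that held both the lowest and the highest array. The signals of cfa-miR-499 were 178, 44.1, 24.9 and 55.5 on DoCM5 to DoCM8 and 47.2, 18.3, 73.0 and 21.8 on Con1 to Con4. Here DoCM5 was far above all others, an array that was also bright as a whole, with a median signal of 33.9 over the detected names against 12.8 to 28.9 on the other arrays. The signals of mmu-miR-208a-5p were 21.3, 19.1, 10.2 and 33.6 on DoCM5 to DoCM8 and 67.2, 22.7, 40.8 and 20.3 on Con1 to Con4. Because overall brightness differs between arrays, groups were compared on values calibrated across arrays.

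For this comparison the kept features of each name were averaged, and the means were calibrated between the 8 arrays and transformed by the vsn model. The resulting values (glog2) behave as log2 of the signal for bright names and flatten near the background, at a level that differs between arrays. A cfa-miR-208a probe with 0 flagged features on any array had 1.73 on DoCM5 and 0.25 to 0.67 on the other arrays. Differences of dim names can therefore be understated, or shifted by this level. The groups were then tested with limma on 7 arrays, leaving out DoCM8 as the methods do, and on all 8. The limits of the methods were an unadjusted p under 0.05 with a fold change over 1.5.

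A single member listing passed these limits. mmu-miR-208a-5p was lower in DCM over the 7 arrays, and neither its adjusted p nor the fit over all 8 arrays passed. Of the 6 detected listings, 0 were higher and 1 lower past both limits, beside 11 of the 438 names tested (2.51%), 6 of them higher (1.37%) and 5 lower (1.14%). The split moved with the scaling, to 2 higher and 21 lower with the 75th percentile of the detected names, which shifted the median of all names by -0.25 and left 1 name past the adjusted limit. It was 4 and 7 with the 75th percentile of all names, 4 and 8 with quantile normalization, and 5 and 27 without DoCM6. Higher names were more numerous without DoCM5 and DoCM8 (16 and 12) and with the filter at 3 arrays of a group (8 and 3). With all 8 arrays weighted the split was 17 and 17. Over all 8 arrays 0 members passed, beside 17 of 438 names (3.88%), 8 higher (1.83%) and 9 lower (2.05%). After Benjamini-Hochberg adjustment over all names limma called 0 of 438 on 7 and on 8 arrays, where 11 and 18 names (2.51% and 4.11%) had an unadjusted p under 0.05. The 5 listings with no kept feature were not tested in this fit.

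The glog2 values of mmu-miR-208a-5p were 3.51 on DoCM5, 4.10 on DoCM6 and 3.93 on DoCM7, against 5.77 on Con1, 4.96 on Con2, 4.74 on Con3 and 4.67 on Con4. All 3 DCM arrays lay below all 4 control arrays, whereas DoCM8, at 5.24, lay above every control array but Con1. Without DoCM8 the DCM arrays averaged 3.85 ± 0.30 (SD, n = 3) and the controls 5.03 ± 0.50 (SD, n = 4). The difference was -1.19, or 2.28-fold lower in DCM (standard error 0.37, 95% interval -1.99 to -0.38, p = 0.00746 and adjusted p = 0.9996 from limma, two-sided exact permutation p = 0.0286, the smallest that the 35 splits of 3 and 4 arrays allow). Groups that did not overlap, with DCM lower, were found for 7 of 438 names (1.6%). With DoCM8 included the difference was -0.84 (standard error 0.40, 95% interval -1.70 to 0.03, p = 0.0565 and adjusted p = 0.961 from limma, exact permutation p = 0.114), and the groups overlapped.

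Both probes of mmu-miR-208a-5p had the same direction over the 7 arrays, with differences of -1.09 and -1.37, and the same over all 8 arrays with -0.78 and -0.95. With each probe centred on its own mean over the 8 arrays, they still differed by up to 0.65 on an array. This was the widest gap among the detected listings, where it ran from 0.09 for cfa-miR-499 to 0.44 for mmu-miR-1a in the others. The copies of a probe agreed closely on most arrays, with a coefficient of variation of 6.85% to 32.1% and a median of 10.9%. The listing was below 0 in each of 26 alternative settings, between -1.31 and -0.35, and past both limits in 20 of them. Among these 26 and 20 was the deposited value table, which repeats the main fit. Leaving out DoCM5 in place of DoCM8 gave -0.61 (adjusted p = 0.811 from limma) and did not pass both limits, so that the call rests on which DCM array is left out. The array left out here was taken by its label, and in the deposited data DoCM5 was the array on which 130 of 438 detected names (29.7%) were highest. The study describes the array it left out as one with intensified signals. The median signal over the detected names was 33.9 on DoCM5 and 16.4 on DoCM8. Whether the numbers of the labels are those of the methods is not known.

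**Figure D3:**
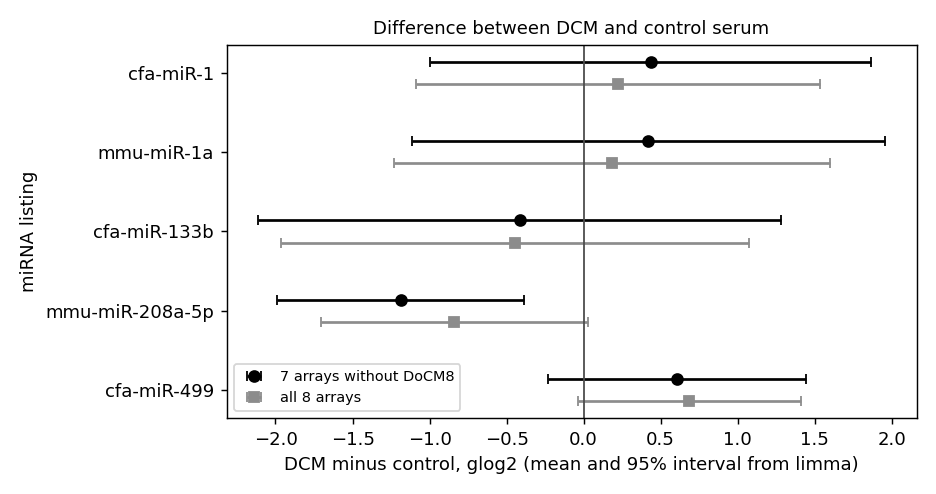
DCM minus control in glog2 with the 95% interval from limma for the 5 detected listings that were called on at least 1 array of both groups, over the 7 arrays without DoCM8 (black circles) and over all 8 arrays (grey squares). The black interval of mmu-miR-208a-5p, -1.99 to -0.38, is the only one that leaves out 0, and its grey interval reaches 0.03.

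cfa-miR-499, the myomiR of MYH7B, had glog2 values of 6.28, 5.37, 5.30 and 5.97 on DoCM5 to DoCM8 and 5.22, 4.58, 5.57 and 4.82 on Con1 to Con4. The DCM values were on average above those of the controls, but Con3 lay above DoCM6 and DoCM7. Over the 7 arrays the difference was 0.61 (standard error 0.38, 95% interval -0.23 to 1.44, 1.52-fold, p = 0.139 and adjusted p = 0.9996 from limma, exact permutation p = 0.200). Over all 8 arrays it was 0.69 (standard error 0.33, 95% interval -0.04 to 1.41, p = 0.0607 from limma, exact permutation p = 0.114). Its probes gave 0.62 and 0.61 over the 7 arrays, and the coefficient of variation over the copies of a probe was 3.96% to 13.1%. The sign was the same in all 26 alternative settings, among them the deposited value table, which repeats the main fit. Of the 26 settings, 1 passed both limits. Without DoCM5, the bright array, and DoCM8 the difference was 0.29 (adjusted p = 0.887 from limma).

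cfa-miR-133b had glog2 values of 4.85, 5.82, 6.65 and 5.65 on DoCM5 to DoCM8 and 4.15, 8.27, 6.22 and 6.13 on Con1 to Con4. The control group held the lowest and the highest of all 8 arrays and enclosed the DCM group. Over the 7 arrays the difference was -0.42 (standard error 0.78, 95% interval -2.11 to 1.28, p = 0.603 from limma, exact permutation p = 0.771), and over all 8 it was -0.45 (p = 0.533 from limma, exact permutation p = 0.686). The interval leaves room for a change of more than 2-fold in either direction. With Con2 left out of the 7 arrays the value turned to 0.28 (adjusted p = 0.998 from limma). The related cfa-miR-133c gave -0.37 (standard error 0.77, p = 0.637 from limma, exact permutation p = 0.771) and 0.36 without Con2.

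cfa-miR-1 had glog2 values of 2.65, 2.61, 4.02 and 2.25 on DoCM5 to DoCM8 and 1.45, 4.50, 2.76 and 1.93 on Con1 to Con4. The highest and the lowest array were again both controls, Con2 and Con1. The difference was 0.44 over the 7 arrays (standard error 0.65, 95% interval -0.995 to 1.87, p = 0.518 from limma, exact permutation p = 0.600) and 0.22 over all 8 (p = 0.715 from limma, exact permutation p = 0.743). The murine mmu-miR-1a gave 0.42 (standard error 0.70, limma p = 0.561, exact permutation p = 0.629) and 0.19 (p = 0.779 from limma, exact permutation p = 0.8286). Without Con2 the values of cfa-miR-1 and mmu-miR-1a over the remaining 6 arrays were 1.05 and 1.11 (adjusted p = 0.998 from limma for both), and without DoCM7 they were -0.030 and -0.033, so that the size and the sign of both hang on single arrays.

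cfa-miR-206 had glog2 values of 2.46, 2.04, 2.97 and 1.82 on DoCM5 to DoCM8 and 1.65, 4.10, 2.25 and 1.83 on Con1 to Con4. It was called on 0 of 4 DCM arrays and on 1 of 4 control arrays, so its values near the background hold no measured difference. Its fitted value over the 7 arrays was 0.03 (adjusted p = 0.9996 from limma), and the bound against the background level gave no fold above 1. No fold is given for cfa-miR-133a, cfa-miR-208a, cfa-miR-208b, mmu-miR-1b-3p and mmu-miR-1b-5p either. When all 40 features of every name were used without a filter, these 5 listings had an unadjusted limma p between 0.205 and 0.929 over the 7 arrays, and 41 of 1224 names (3.35%) passed both limits.

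The listings of miR-1, miR-1a, miR-206 and miR-133b had their highest glog2 value on Con2 and their lowest on Con1. On the signal scale Con2 was also highest, but the lowest array was Con4 for miR-1 and miR-1a and DoCM8 for miR-206. For miR-206, called on 1 of 8 arrays, and in part for miR-1, these are values near the background. In glog2, Con2 was the highest array for 4 of the 6 detected listings, which were cfa-miR-1, mmu-miR-1a, cfa-miR-133b and cfa-miR-206. Of all 438 detected names, 58 (13.2%) were highest on Con2. On the background-subtracted scale cfa-miR-133b reached 212 on Con2 against 23.5 to 113 on the other controls, and cfa-miR-1 reached 17.2 against 3.47 to 11.1. Con2 is labelled as a healthy dog, and why these listings were highest on it was not tested. The other detected listings had their maximum elsewhere, cfa-miR-499 on DoCM5, as 130 of 438 names did (29.7%), and mmu-miR-208a-5p on Con1, as 25 did (5.71%).

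**Figure D4:**
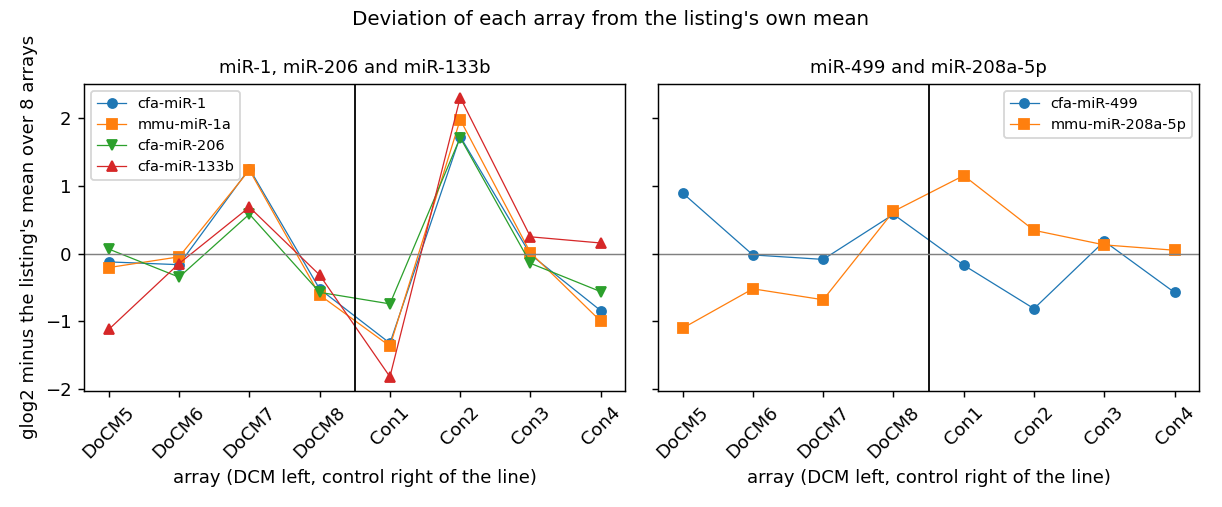
Deviation of each array from the mean of the listing over the 8 arrays, in glog2, for miR-1, miR-1a, miR-206 and miR-133b (left) and for miR-499 and miR-208a-5p (right), with DCM arrays left and control arrays right of the line. The left panel shows the 4 listings with peaks on Con2 and DoCM7 and their lowest values on Con1, while the right panel shows miR-499 highest on DoCM5 and miR-208a-5p highest on Con1.

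Over the 8 arrays, 15 pairs of the 6 detected listings were compared. The glog2 values of cfa-miR-1 and cfa-miR-206 had a Pearson r of 0.945 (exact permutation p = 0.000149, 0.00112 adjusted over the 15 pairs) and a Spearman rho of 0.952 (exact permutation p = 0.00114, adjusted 0.00856). Without DoCM7 and Con2, the arrays farthest from the median of cfa-miR-1, r was still 0.859. For cfa-miR-1 and mmu-miR-1a r was 0.996 (exact permutation p = 7.44e-05, adjusted 0.00112) and rho 0.976 (exact permutation p = 0.000397, adjusted 0.00595), with r = 0.988 without the same arrays. cfa-miR-206 and mmu-miR-1a had r = 0.951 (exact permutation p = 0.000322, adjusted 0.00161). These listings of the miR-1 family have probes that may bind each other's targets, the values share a calibration, and those of cfa-miR-206 lie near the background on all arrays but Con2.

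For cfa-miR-1 and cfa-miR-133b, which belong to different families, r was 0.846 (exact permutation p = 0.00826, adjusted 0.0248) and rho 0.786 (exact permutation p = 0.0279, adjusted 0.0838). It fell to 0.538 without DoCM7 and Con2, so that the strength of this relation rests on those 2 arrays. For cfa-miR-133b and cfa-miR-206, whose genes are direct neighbours, r was 0.821 (exact permutation p = 0.0141, adjusted 0.0352), rho was 0.738 (exact permutation p = 0.0458, adjusted 0.115), and r fell to 0.261 without Con1 and Con2. This relation therefore rests on the lowest and the highest control array. No correlation was computed within the groups, each of which held 4 arrays.

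cfa-miR-499 and mmu-miR-208a-5p did not share this pattern. cfa-miR-499 had r from -0.591 to -0.303 with the 4 listings of miR-1, miR-206 and miR-133b, with exact permutation p from 0.117 to 0.470 (adjusted 0.251 to 0.542), and rho from -0.476 to -0.0476. Without DoCM7 and Con2 its r with cfa-miR-1 was 0.554 and with cfa-miR-206 0.626, and without DoCM5 and Con2 it was 0.183 with mmu-miR-1a, so that the sign of these 3 rested on the arrays left out. With cfa-miR-133b it stayed negative, at -0.755 without Con1 and Con2. For mmu-miR-208a-5p r ran from -0.366 to -0.0979 with the same listings, with exact permutation p from 0.372 to 0.828 (adjusted 0.534 to 0.828), and rho from -0.548 to -0.167. Without DoCM7 and Con2 its r was -0.743 with cfa-miR-1 and -0.846 with cfa-miR-206, and without Con1 and Con2 it was 0.290 with cfa-miR-133b. Between cfa-miR-499 and mmu-miR-208a-5p r was -0.359 (exact permutation p = 0.386). A p of this size with 8 arrays does not show that the levels are unrelated.

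Among the 437 other detected names, those most like cfa-miR-1 over the 8 arrays were mmu-miR-1a, cfa-miR-206 and cfa-miR-133c (r = 0.892), the first being the murine listing of miR-1 itself. The closest to cfa-miR-133b were cfa-miR-133c (0.989), mmu-miR-1943 (0.872) and mmu-miR-378b (0.863). cfa-miR-206 was closest to mmu-miR-1a, cfa-miR-1 and mmu-miR-1945 (0.928). cfa-miR-499 had a different company, with cfa-miR-219 (0.971), cfa-miR-660 (0.968) and mmu-miR-32 (0.964), and 20 of 437 names had r over 0.9 with it, against 2 for cfa-miR-1 and 1 for cfa-miR-133b. mmu-miR-208a-5p had no name over 0.9, and its closest were cfa-miR-22 (0.801), mmu-miR-187* (0.779) and mmu-miR-139-3p (0.772). These values describe 8 arrays, and the names share libraries and calibration.

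Other miRNAs described in heart muscle, cardiac fibroblasts or vessels were measured on the same arrays as a list of 35 listings of 25 miRNAs. Of these listings 34 were detected, against 6 of 11 for the muscle listings and 438 of 1224 for all names (35.8%). Over the 7 arrays 0 of 34 passed both limits in either direction, beside 2.51% of all names, with a median difference of -0.02 beside 0.00 for all names. Over all 8 arrays 1 of 34 was past both limits, beside 3.88% of all names, and this was cfa-miR-21. The study describes miR-21 as expressed in many organs, the heart among them. Its mean was 10.09 in DCM and 9.41 in controls, a difference of 0.68 (standard error 0.27, adjusted p = 0.961 from limma).

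Blood cells can also release miRNA into serum while blood clots, and their markers were read beside the comparison of mmu-miR-208a-5p. The erythrocyte listings were detected in 3 of 3 cases, and their mean glog2 lay between 11.46 and 12.01 on the DCM arrays and between 10.59 and 11.27 on the control arrays, higher on every DCM array, with Con2 lowest. The DCM minus control difference was above 0 for 2 of these 3 listings over the 7 arrays and for all 3 over all 8. Of these 3 listings 1 was higher in DCM past both limits over the 7 arrays, beside 1.37% of all names, mmu-miR-144 with 0.81 (standard error 0.34, adjusted p = 0.9996 from limma). Over all 8 arrays 2 of 3 were, beside 1.83% of all names, mmu-miR-144 with 0.98 (adjusted p = 0.875 from limma) and cfa-miR-144 with 0.76 (adjusted p = 0.961 from limma). These 2 are listings of the same miRNA, so a single erythrocyte miRNA was past the limits. The median of the 3 listings was 0.76, the value of cfa-miR-144 itself, beside 0.00 for all names, against 0.60 over the 7 arrays. The leukocyte listings were detected in 7 of 7 cases, with means of 7.36 to 7.65 in DCM and 7.12 to 7.58 in controls, and over the 7 arrays 1 was higher past both limits, beside 1.37% of all names, mmu-miR-142-3p with 1.23 (standard error 0.38, adjusted p = 0.9996 from limma). Over all 8 arrays it was again 1 of 7, beside 1.83% of all names, the same listing with 1.28 (standard error 0.33, adjusted p = 0.456 from limma), and the median of the 7 was 0.13 over the 7 arrays and 0.04 over all 8. The 5 platelet and endothelial and the 3 liver listings were all detected, with 0 past the limits and overlapping ranges of 5.96 to 7.18 against 6.17 to 6.51 and of 5.49 to 6.16 against 5.51 to 6.50. The part of blood cell content in the values of the muscle miRNAs was not tested.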

How the data were processed

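Total RNA from clotted-blood serum was labelled with Cy3 and hybridized to Agilent arrays. The authors deposited, for each array, the scanner output of Feature Extraction 10.7.3.1 (version as in the submitters' processing notes) and a table of the same values: the signal is an intensity per feature, background-subtracted and not normalized between arrays. The table and the scanner signals differed by 0. The members and lists were chosen with earlier results of these data known. Every listing matched by name is described, whatever its values, together with its star strands, listed heart miRNAs past both limits, and the 3 most correlated names of each member with at least 50% of its features kept (mmu-miR-1a was counted as another name than cfa-miR-1).

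A feature was kept when flagged well above background on at least 2 arrays of a group, over all 8 arrays. Means left out any feature with an outlier flag on that array. The mean per name was calibrated with an own implementation of the vsn model (least trimmed squares quantile 0.9, 5 slices, 7 iterations) and tested with limma 3.58.1 in R 4.3.3 over the 7 arrays without DoCM8. p-values were adjusted over all 438 names by Benjamini-Hochberg. Permutation tests were exact and two-sided over arrays (Python 3.11.15, scipy 1.17.1, numpy 2.4.6, pandas 2.3.3), and figures used matplotlib 3.10.9. Both the calibration and the fit were tested on simulated data. Alternatives covered arrays, normalization, background correction, averaging, filters, flags, the slide column and single arrays left out. The planned background correction used the median signal, since the files hold no mean signal. miRNA sequences were not used here. The small number of arrays limits the precision of all values.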

Additional observations from a re-analysis of the deposited data

How the results depend on the processing

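Chosen after the data were seen were the fits on all 8 arrays without Con2 and on all 8 arrays without a filter, and the vsn model fitted to all names. The deposited value table was counted among the alternatives, although it repeats the main fit. The sign of cfa-miR-499 (0.61) and of mmu-miR-208a-5p (-1.19) was the same under every alternative, while those of cfa-miR-1 (0.44), mmu-miR-1a (0.42) and cfa-miR-133b (-0.42), which were never past both limits, reversed in some. For mmu-miR-208a-5p the call was lost over all 8 arrays (-0.84), without DoCM5 in place of DoCM8 (-0.61), with all 8 arrays weighted (-0.46), with normexp and quantile normalization (-0.35), on all 8 arrays without a filter (-0.75) and on all 8 arrays without Con2 (-0.86). cfa-miR-499 passed both limits with all 8 arrays weighted (0.59). cfa-miR-133b turned to 0.15 with all 8 arrays weighted and to 0.25 on all 8 arrays without Con2, and mmu-miR-1a to -0.0016 with normexp. With single arrays left out of the 7, values ran from -0.030 to 1.05 for cfa-miR-1 (below 0 without DoCM7), -0.033 to 1.11 for mmu-miR-1a (below 0 without DoCM7 or Con1), -1.10 to 0.28 for cfa-miR-133b (above 0 without Con2 or DoCM5), 0.29 (without DoCM5) to 0.78 for cfa-miR-499 and -1.31 to -0.94 for mmu-miR-208a-5p, which kept its call in each.

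Names past both limits numbered 11, and 9 to 32 with single arrays left out (28 without DoCM5, 32 without DoCM6). They were 17 over all 8 arrays, 23 without DoCM5 in place of DoCM8, 34 with array weights, 23 with scaling to the 75th percentile of the detected names, 4 with normexp, 41 without a filter, 26 when 1 array of a group was enough, 7 when at least 50% of the features had to be kept, and 52 on all 8 arrays without a filter. Member listings with a kept feature numbered 6, also with any array left out (6 to 6). They were 10 when 1 array was enough and 4 when all 8 arrays were asked for. Listings called on all 8 arrays rose from 3 to 6 with either of the other flags, with no count of all names beside it. Scaling to the 75th percentile moved the median of all names by -0.25 (detected names) or 0.11 (all names). The causes were not tested. Dogs could not be paired by their labels, since array numbers differ between DCM and control. A fit with the slide column as a block, which pairs 3 DCM arrays with 3 controls by position and leaves Con4 without a partner, gave -1.31 for mmu-miR-208a-5p, past both limits. Of 12 groups of 4 arrays, 0 held an array past Dixon's 95% limit. Listings near the background, miR-1, miR-1a and miR-206, are limited by signal over background.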
